A study of Mus musculus with 141 samples.

Results

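Elastic fibres let lung tissue and artery walls recoil after they are stretched. Each fibre has a core of elastin that is laid down on a scaffold of microfibrils built from fibrillin, and lysyl oxidases join the elastin molecules by crosslinks. Fibulins guide elastin onto the scaffold, and latent TGF-beta binding proteins hold the growth factor TGF-beta in store on the same microfibrils. The genes described here were chosen by name as parts of this system and make up 10 of the 24423 genes in the files. They are Eln (elastin), the scaffold genes Fbn1 and Mfap4, the fibulin genes Fbln1, Fbln2, Fbln5, Efemp1 and Efemp2, the TGF-beta binding protein gene Ltbp1, and the crosslinking enzyme gene Lox.

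The RNA-seq data cover lung, liver and kidney in 47 Collaborative Cross strains, recombinant inbred lines of mice. Each strain was represented by 1 adult male of 8 to 12 weeks that gave all 3 organs, giving 3 groups of 47 libraries. All mice ate the same NTP 2000 wafer diet, spent 6 hours of each weekday in mesh chambers with clear air before the organs were taken, and received nembutal at 100 mg/kg, and the labels name no difference between the groups other than organ. They give no sequencing batch, so a batch difference between organs cannot be told apart. A strain is therefore a sample of 1 animal, and differences between strains cannot be told apart from differences between individual mice. RNA with an integrity value of at least 7 was freed of ribosomal RNA before the libraries were made, and the data hold whole tissue, in which fewer cells of a type and less RNA per cell cannot be told apart.

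Total counts ranged from 1738046 to 42158454 per library, and part of this depth was ribosomal. Rn45s, the ribosomal RNA precursor, and Lars2, a gene that often collects mitochondrial ribosomal reads, together held 0.340 to 90.3% of the counts in liver (median 43.2%), 1.02 to 90.5% in lung (median 24.1%) and 0.206 to 83% in kidney (median 32.3%). The counts outside these genes were as few as 491533 in liver, 987292 in lung and 1190759 in kidney. Libraries were therefore scaled with TMM, the trimmed mean of M-values, which sets aside a few very abundant genes, and levels of different genes are given as TMM-normalized TPM, which are per transcript length. Marker genes matched the tissue labels: 5 liver markers summed to at least 72788 CPM (counts relative to library size, TMM-normalized) in every liver library and at most 3810 in any other, 5 lung markers to at least 6150 in lung and at most 160 elsewhere, and 5 kidney markers to at least 7994 in kidney and at most 705 elsewhere.

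Of the 10 members, 7 passed the filter on low counts and could be tested. Fbln2, Efemp2 and Lox did not pass, and Mfap4 passed only through its level in lung. For Fbln2, Efemp2, Lox and Ltbp1 the files name more than 1 transcript, and only uniquely aligned reads were counted. Genes with more than 1 transcript named had a median of 0.30 TPM in lung, beside 3.26 TPM for genes with 1, so the levels of these 4 members are not set against those of the other 6.

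The members lie on separate chromosomes or far apart on a shared one (genome build NCBIM37). Eln is at chr5:135179651-135223111 on the minus strand, Fbn1 at chr2:125126330-125333729 on the minus strand, and Fbln5 at chr12:102984775-103057265 on the minus strand. Efemp1, at chr11:28753204-28826743, and Mfap4, at chr11:61298933-61302402, share a chromosome. Promoters of 7 of the 10 members were taken from the RefSeq promoter table used here (build GRCm38.p6). The 250 bases before the start are shown for the 2 genes whose strain values were correlated between lung and kidney, Fbn1 and Fbln5, and for Efemp1, the member with the highest level in liver. Capitals mark GC boxes (GGGCGG, or CCGCCC where the box is on the other strand) and an AP-1 site (TGANTCA).
Fbn1, chr2:125506439-125506688, minus strand: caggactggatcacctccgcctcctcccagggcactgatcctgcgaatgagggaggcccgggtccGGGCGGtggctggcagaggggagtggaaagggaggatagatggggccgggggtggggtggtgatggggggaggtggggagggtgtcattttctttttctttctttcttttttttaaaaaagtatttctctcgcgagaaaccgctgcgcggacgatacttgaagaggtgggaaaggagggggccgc
Fbln5, chr12:101819120-101819369, minus strand, the upstream of 2 starts: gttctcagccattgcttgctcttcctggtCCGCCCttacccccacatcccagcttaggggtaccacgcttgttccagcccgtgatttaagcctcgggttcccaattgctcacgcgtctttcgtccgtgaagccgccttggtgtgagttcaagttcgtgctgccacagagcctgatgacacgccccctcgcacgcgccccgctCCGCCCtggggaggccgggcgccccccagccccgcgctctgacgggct
Efemp1, chr11:28852955-28853204, plus strand: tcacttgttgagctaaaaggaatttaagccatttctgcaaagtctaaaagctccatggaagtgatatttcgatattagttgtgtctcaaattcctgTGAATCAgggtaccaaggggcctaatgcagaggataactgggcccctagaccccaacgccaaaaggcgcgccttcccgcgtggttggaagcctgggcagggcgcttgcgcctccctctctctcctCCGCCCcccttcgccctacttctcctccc
Each of the 3 windows held a GC box, 2 of them in Fbln5, and a GC box stood in 32.7% of the 32851 promoters of the table. The window of the other Fbln5 start, which is not printed, held 0 GC boxes. The AP-1 letters were in the Efemp1 window and in 6.75% of all promoters. None of the 3 held TATAAA, the TATA box, which 12.4% of all promoters had, CACGTG, an E-box, which 6.02% had, or the CArG box, which 1.47% had. These matches describe the letters only.

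The first question was where the elastic fibre genes are expressed. Lung stood above liver and kidney for most members. Of the 7 tested members, Mfap4 entered the test only through its lung level, so its call towards lung was fixed by the filter. The other 6 passed the filter on liver and kidney libraries alone: 6 of 6 were higher in lung than in liver, by 5.95-fold (Ltbp1) to 29.5-fold (Eln), and 5 of 6 were higher in lung than in kidney, by 2.98-fold (Ltbp1) to 17.2-fold (Eln). Mfap4 was 126-fold higher in lung than in liver and 173-fold higher than in kidney. The exception was Fbln5, whose level was highest in kidney. The share of all 12127 tested genes called higher in lung was 31% against liver and 25.5% against kidney, and of the 10804 that passed without lung it was 24.9% and 19.2%. Between liver and kidney 3 members were called, all higher in kidney (Fbn1, Fbln1 and Fbln5), beside 20.8% of all genes. No member was called higher in liver than in lung (23.9% of all genes) or in kidney (15.6%), and none higher in kidney than in lung (20.6%). Genes were called at a limma-voom adjusted p of at most 0.1 with at least a 2-fold difference, which is 1 on the log2 scale, and all log2 differences in this section come from that fit with mouse as a block.

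**Figure D1:**
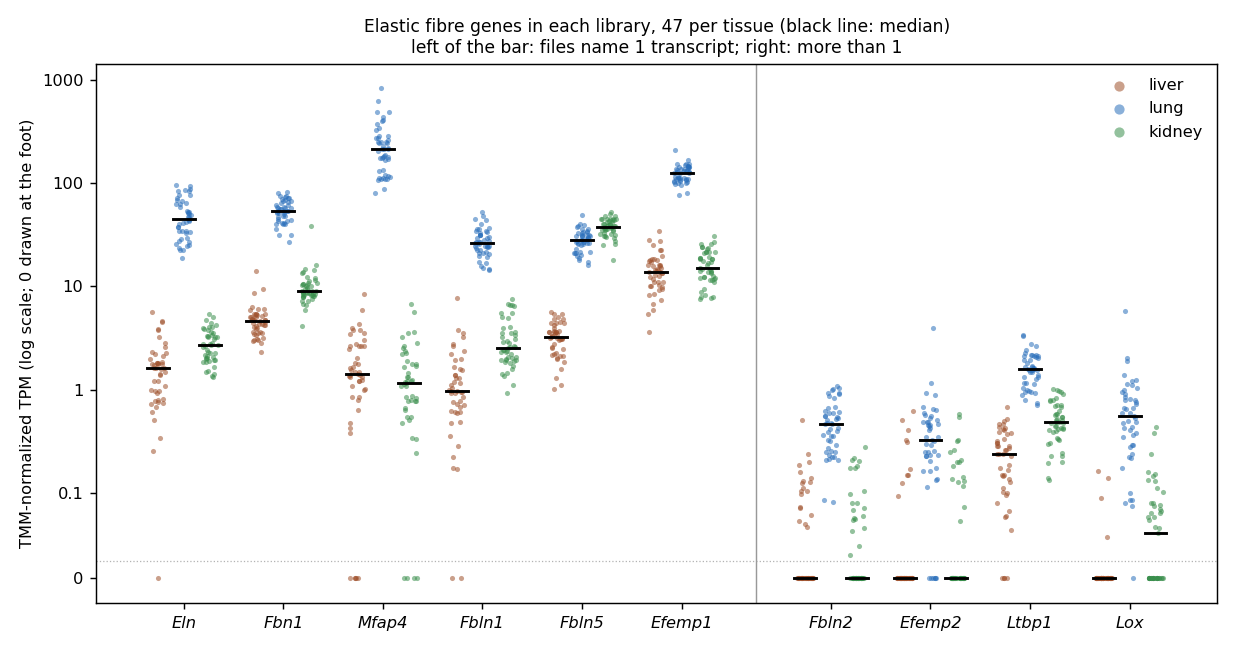
Level of each member (TMM-normalized TPM, log scale) in each library, coloured by tissue, with the median of 47 libraries as a black line and values of 0 drawn at the foot. Lung values lie above liver and kidney for most genes, while Fbln5 has its highest median, 37.4, in kidney.

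Elastin itself was a lung transcript in these data. Eln ran from 18.9 to 96.4 TMM-normalized TPM in lung (median 44.5), from 1.34 to 5.43 in kidney (median 2.70), and from 0 to 5.59 in liver (median 1.62). The lowest lung value was above the highest value in either other organ. On the log2 scale lung was higher than liver by 4.88 ± 0.0895 (SE, adjusted p 1.7e-73) and higher than kidney by 4.10 ± 0.0844 (adjusted p 9.5e-69), each in 47 of 47 mice. Kidney was above liver in 39 of 47 mice, and the log2 difference, liver minus kidney, was -0.78 ± 0.0891, below the fold limit. Liver counts of Eln were small, with a median of 12 reads, and 3 libraries had at most 3.

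Fbn1, which encodes fibrillin-1, the main subunit of microfibrils in the adult, was measured well in all organs, with a median of 2582 reads in lung, 307 in kidney and 90 in liver. Its level was 27 to 81.9 TMM-normalized TPM in lung (median 53.3), 4.17 to 38.3 in kidney (median 9.01) and 2.32 to 14.2 in liver (median 4.59). Lung was above kidney in every mouse, by 2.42 ± 0.0590 on the log2 scale (adjusted p 3.5e-62), although the ranges of the 2 organs overlapped because 1 kidney, that of strain CC020, reached 38.3. Kidney was above liver in 45 of 47 mice, and the log2 difference, liver minus kidney, was -1.08 ± 0.0600 (adjusted p 3.7e-32). The difference from liver to lung was -3.50 ± 0.0598 (adjusted p 2.4e-76). The order lung, kidney, liver therefore held for Fbn1 at every step.

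Mfap4, a glycoprotein that binds fibrillin and elastin, had the widest gap between lung and the other organs. It was 79.3 to 823 TMM-normalized TPM in lung (median 212), 0 to 6.71 in kidney (median 1.17) and 0 to 8.51 in liver (median 1.41). In kidney and liver this rested on a median of 5 reads, with 16 libraries of each organ at 3 reads or fewer. Lung was higher in 47 of 47 mice against both, by 7.44 ± 0.121 on the log2 scale over kidney and 6.97 ± 0.121 over liver. Mfap4 passed the filter only through lung, so its side was fixed and these values are a description. Liver minus kidney was 0.46 ± 0.118, below the fold limit, and its sign turned to -0.44 with scaling by total counts and to -0.28 on log2(TPM + 1). The median of all tested genes was -0.95 and -0.72 in these settings.

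The fibulins did not share a pattern over the organs. Fbln1, a fibulin found in blood vessel walls and basement membranes, followed elastin: its level was 14.3 to 52.3 TMM-normalized TPM in lung (median 26.3), 0.935 to 7.56 in kidney (median 2.52) and 0 to 7.70 in liver (median 0.974). Lung exceeded kidney by 3.13 ± 0.103 (adjusted p 1.3e-50) and liver by 4.54 ± 0.112 (adjusted p 9.2e-62) on the log2 scale, with no overlap between lung and either organ. Kidney was above liver in 40 of 47 mice, and the log2 difference, liver minus kidney, was -1.42 ± 0.111 (adjusted p 5.1e-22). Fbln1 in liver was counted with a median of 8 reads.

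Fbln5, fibulin-5, ties elastin to the microfibril scaffold and to cells, and mice that lack it have loose skin and enlarged lung airspaces. Its level was 17.9 to 52.0 TMM-normalized TPM in kidney (median 37.4), 16.1 to 49.2 in lung (median 28.1) and 1.01 to 5.65 in liver (median 3.23). Kidney and lung overlapped over most of their ranges, and both lay wholly above liver. Kidney was above lung in 42 of 47 mice, with a log2 difference, lung minus kidney, of -0.48 ± 0.0592 (adjusted p 2.3e-12), which was under the fold limit, fell to -0.052 with scaling by total counts and was 0.040 on log2(TPM + 1). Over all tested genes the median lung minus kidney was 0.46 and 0.47 in these settings. Kidney over liver was 47 of 47 mice, with a log2 difference, liver minus kidney, of -3.57 ± 0.0623 (adjusted p 3.7e-75), and liver minus lung was -3.08 ± 0.0623 (adjusted p 1.1e-69). Fbln5 was the only tested member whose difference between lung and kidney did not reach the fold limit.

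Efemp1, fibulin-3, was abundant in lung and overlapped between the other organs. It was 75.6 to 210 TMM-normalized TPM in lung (median 124), 7.55 to 31.03 in kidney (median 15.02) and 3.61 to 34.3 in liver (median 13.9). Lung exceeded kidney by 2.90 ± 0.0751 (adjusted p 8.1e-60) and liver by 3.06 ± 0.0759 (adjusted p 1.3e-61) on the log2 scale, in every mouse and with no overlap. Liver minus kidney was -0.15 with a 95% interval from -0.30 to -0.0041, and kidney was the higher organ in 25 of 47 mice. That small difference depended on the scaling: liver minus kidney was -1.12 with total counts and -1.05 on log2(TPM + 1), each past the fold limit. The median of all tested genes also moved, to -0.95 and -0.72.

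Ltbp1, which carries latent TGF-beta to microfibrils, had few reads, with medians of 50 in lung, 10 in kidney and 3 in liver. It was 0.714 to 3.38 TMM-normalized TPM in lung (median 1.59), 0.133 to 1.02 in kidney (median 0.483) and 0 to 0.682 in liver (median 0.237). Lung was above liver in 47 of 47 mice by 2.57 ± 0.148 on the log2 scale (adjusted p 3.8e-31) and above kidney in 46 of 47 by 1.58 ± 0.146 (adjusted p 4.4e-18). Liver minus kidney was -0.998 ± 0.149 (adjusted p 2.3e-09), just short of the fold limit, and it was called with total counts (-1.998), with DESeq2 size factors (-1.10), with DESeq2's own test (-1.11), with no low-count filter (-1.08) and with no block for the mouse (-1.05).

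The 3 members that could not be tested had their highest values in lung as well. Lox, the lysyl oxidase that crosslinks elastin and collagen, had 0 reads in 43 of 47 livers and 23 of 47 kidneys, and its lung values ran from 0 to 5.72 TMM-normalized TPM (median 0.564). Lung was above kidney for Lox in 44 of 47 mice. Fbln2, fibulin-2, a protein of vessel walls and basement membranes, was 0.0825 to 1.08 in lung (median 0.471), and had 0 reads in 28 livers and 26 kidneys. Efemp2, fibulin-4, which is needed to bring lysyl oxidase to elastin, was 0 to 4.0 in lung (median 0.327), with a median of 2 reads there and 0 reads in 37 livers and 30 kidneys. At these counts a difference between liver and kidney was not detectable for Fbln2 or Efemp2.

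**Figure D2:**
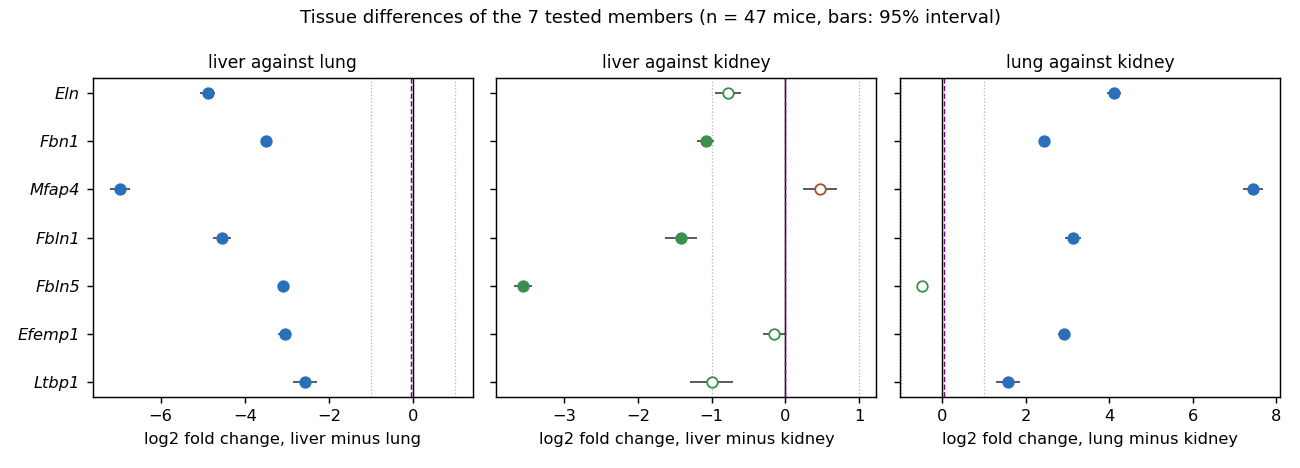
Log2 fold changes of the 7 tested members between tissues (limma-voom, 47 mice, bars are 95% intervals), with filled points called and open points not, coloured by the higher tissue; dotted lines mark a 2-fold difference and the dashed line the median of all tested genes. All 7 points lie on the lung side against liver, where the side of Mfap4 was fixed by the filter. Fbln5 alone lies on the kidney side against lung, at -0.48.

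Within an organ, the 6 members with 1 transcript could be ranked by level. In lung the order of median TMM-normalized TPM was Mfap4, Efemp1, Fbn1, Eln, Fbln5 and Fbln1. Efemp1 was above Fbn1 in 47 of 47 mice, whereas Fbn1 was above Eln in 32 and Fbln5 above Fbln1 in 27, so those last neighbours were not separated by more than their spread. In kidney the order was Fbln5, Efemp1, Fbn1, Eln, Fbln1 and Mfap4, with Fbln5 above Efemp1 in 46 mice and Eln above Fbln1 in only 22. In liver it was Efemp1, Fbn1, Fbln5, Eln, Mfap4 and Fbln1, with Efemp1 above Fbn1 in 44 mice and Eln above Mfap4 in 22. Mfap4 was thus the leading member in lung and the last in kidney.

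A wider list of elastic fibre genes was counted in the same fit, and their levels below are means of TMM-normalized CPM over 47 libraries, each compared with the same gene only. Leaving out the 10 members, 30 further genes were listed and 20 were tested. Of these, lung was the higher organ for 17 against liver and for 16 against kidney, beside 31% and 25.5% of all tested genes. The median log2 differences were -3.64 (liver minus lung) and 2.44 (lung minus kidney), beside -0.055 and 0.039 over all tested genes. However, 5 of the 20 (Adamts17, Atp7a, Fbn2, Mfap5 and Mmp9) passed the filter only through lung, which fixed their side. Of the 15 that passed without lung, 12 were higher in lung than in liver and 12 higher in lung than in kidney. The shares were 24.9% and 19.2% over all genes that passed without lung. The medians of the 15 were -2.53 and 2.37, beside 0.13 and -0.098 over all genes that passed without lung. Between liver and kidney 8 of the 20 were higher in kidney and 2 in liver, beside 20.8% and 15.6% of all tested genes. Of the 15 these were 5 and 2, beside 20.8% and 15.9% of all genes that passed without lung.

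The shares of all genes given above stand beside each count by role. By role, the scaffold list had 7 of 9 genes tested, members included, and 6 of the 7 were higher in lung against both organs. Of these, Fbn2, Mfap4 and Mfap5 passed the filter only through lung, which fixed their side. The called genes that passed without lung were Eln, Fbn1 and Emilin2. Mfap5, another microfibril glycoprotein, was 10.5 CPM in lung, 0.624 in kidney and 0.170 in liver. For this gene lung exceeded liver by 5.82 ± 0.135 and kidney by 4.15 ± 0.127 on the log2 scale. The scaffold gene that was not called was Emilin1, named after its values were seen, at 38.2 CPM in lung, 26.1 in liver and 22.8 in kidney. Emilin2, named in the same way, was the scaffold gene higher in liver than in kidney, by 1.46 ± 0.0940 on the log2 scale (adjusted p 1.9e-27).

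Fibulins were called in both directions. Of the 5 tested, 4 were higher in lung than in liver, 3 were higher in lung than in kidney, and 1 was higher in kidney than in lung. That one was Fbln7, at 7.65 CPM in kidney, 0.493 in lung and 0.469 in liver, a log2 difference, lung minus kidney, of -3.88 ± 0.140. Its lung and liver means were under the 1 CPM limit of the filter, so its kidney side may have been fixed. Passing without kidney libraries was not counted, so these values are a description. Hmcn1, hemicentin-1, a very large relative of the fibulins, was 385 CPM in lung, 25.01 in liver and 20.04 in kidney, a log2 difference, lung minus kidney, of 4.35 ± 0.0761 (adjusted p 3.9e-75).

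All 4 tested crosslinking and copper supply genes were higher in lung than in liver, and 3 of them higher in lung than in kidney. Of the 4, Atp7a passed the filter only through lung, so its call against liver was fixed. Loxl1, the lysyl oxidase-like enzyme most closely tied to elastic fibres, was 37.1 CPM in lung, 6.92 in kidney and 1.16 in liver, with lung over liver by 5.11 ± 0.118 on the log2 scale (adjusted p 2.3e-64). Loxl2, which also acts on collagen IV, was 22.2 CPM in lung, 10.04 in kidney and 5.84 in liver. Atp7a, the copper pump that supplies lysyl oxidases, was 0.857 CPM in lung, 0.550 in kidney and 0.226 in liver, and its difference between lung and kidney was not called.

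All 5 tested genes of the TGF-beta binding list were higher in lung than in liver and in kidney. Ltbp2, a binding protein of microfibrils, was 102 CPM in lung, 2.23 in kidney and 1.87 in liver, and lung exceeded kidney by 6.04 ± 0.120 on the log2 scale (adjusted p 3.4e-70). Ltbp3, which holds latent TGF-beta, was 54.1, 10.1 and 2.55 CPM in lung, kidney and liver, and Tgfb3, a TGF-beta ligand, was 25.6, 2.31 and 2.01 CPM. Ltbp3 was the gene of this list called between liver and kidney, with a log2 difference, liver minus kidney, of -2.13 ± 0.107 (adjusted p 1.8e-35).

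The 3 tested ADAMTS-like genes, whose products bind microfibrils, were higher in lung against both organs. Adamts17 passed the filter only through lung, which fixed its side, and Thsd4 and Adamtsl2 passed without lung. Adamts17 was 6.67 CPM in lung, 0.256 in kidney and 0.233 in liver, Thsd4 14.6, 3.10 and 0.562, and Adamtsl2 33.3, 13.5 and 6.01. Among the elastin-degrading proteases 3 of 6 were tested. Mmp2, a gelatinase that also cuts elastin, was higher in lung than in kidney by 3.59 ± 0.0794 on the log2 scale (adjusted p 6.4e-66). Mmp9, another such gelatinase, was higher in lung by 4.05 ± 0.144, a side fixed because it passed the filter only through lung. Cela1, an elastase, went the other way, at 51.8 CPM in liver, 23.5 in kidney and 0.479 in lung, with lung minus kidney at -5.54 ± 0.172 (adjusted p 9.1e-53).

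**Figure D3:**
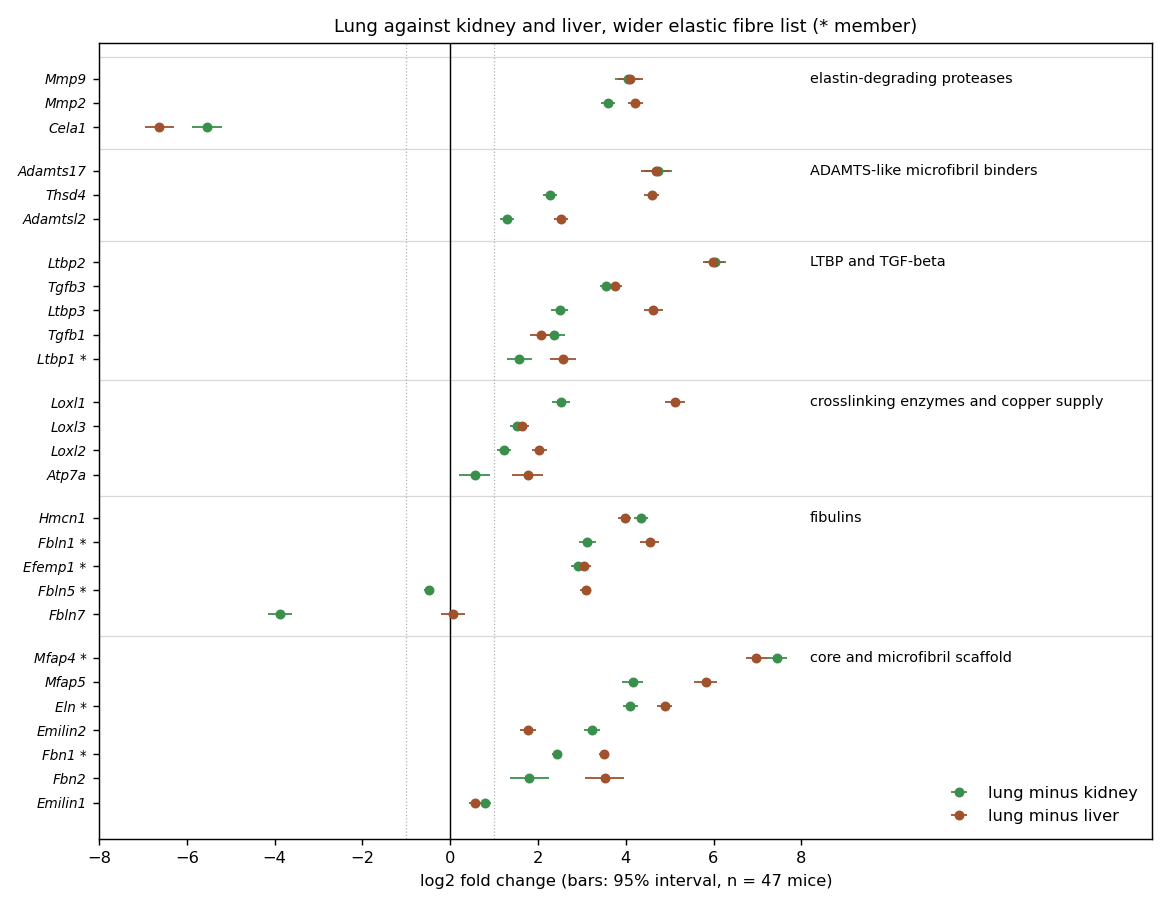
Log2 fold changes of lung against kidney and lung against liver for the 27 tested genes of the 6 elastic fibre lists (limma-voom, 47 mice, bars are 95% intervals; an asterisk marks a member, dotted lines a 2-fold difference). Most points lie to the right, towards lung, among them those of genes that passed the filter only through lung. Cela1 lies furthest to the left in both comparisons.

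Markers of the cell types that make elastic fibres moved with the organ as well. The 8 smooth muscle markers summed to 217 to 1094 CPM in lung (median 374), 33.2 to 128 in kidney (median 54.2) and 10.5 to 283 in liver (median 23.1), where Myh11 and Smtn had a median of 0. The 8 fibroblast markers summed to 286 to 986 CPM in lung (median 520), 95.1 to 347 in liver (median 150) and 85.3 to 518 in kidney (median 120), with Pdgfra at a median of 0 in liver. Lung was the highest organ for both sums, and kidney was above liver for the smooth muscle sum but not for the fibroblast sum. Single fibroblast markers went both ways: Col14a1 had medians of 104 CPM in liver, 52.0 in lung and 62.3 in kidney, and Dcn 12.6, 5.72 and 2.01, so both were highest in liver. Col1a1, Col1a2, Pdgfra and Pi16 had higher medians in kidney than in liver, such as 38.8 and 16.1 CPM for Col1a2.

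Lung was also the highest organ for vessel, lining and cardiac muscle markers. The 5 endothelial markers had medians of 974, 185 and 148 CPM in lung, liver and kidney, the 5 arterial endothelial markers 171, 9.80 and 18.9 CPM, and the 6 mesothelial markers 119, 5.35 and 10.1 CPM. Cardiac muscle markers, which the wall of the pulmonary vein expresses, had a median of 161 CPM in lung, 0.790 in liver and 0.559 in kidney, with Tnnt2 at 0 in every organ's median. The 5 markers of alveolar and lung interstitial fibroblasts were at 944, 273 and 333 CPM in lung, liver and kidney, most of it from Inmt, and Npnt had a median of 0 in each. Pericyte and mesangial markers were at 161, 112 and 112 CPM in lung, liver and kidney, hepatic stellate markers at 104, 152 and 65.9, adipocyte markers at 7.73, 0.455 and 8.11, skeletal muscle markers at 28.03, 2.85 and 0.534, and airway cartilage markers at 1.12, 0 and 0.482. The part of any of these cell types in the organ differences was not tested.

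The second question was whether a strain that was high for a member in one organ was high in another. This held for Fbn1 and Fbln5 between lung and kidney, which is 2 of 7 tested members beside 15.5% of all tested genes called there. For Fbn1 the correlation of normal scores over 47 strains was r = 0.616 (permutation p = 1e-05, the smallest that 100000 permutations can give, q = 2.4e-04 over all tested genes; Spearman's rho = 0.592, permutation p = 2e-05), and r was 0.519 without the 2 strains farthest from the lung median. Strain CC021 was the lowest for Fbn1 in both organs, at 27 TMM-normalized TPM in lung and 4.17 in kidney. For Fbln5 it was r = 0.438 (permutation p = 0.00193, q = 0.0248, rho = 0.474, permutation p = 9.8e-04), and 0.437 without the 2 farthest strains.

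**Figure D4:**
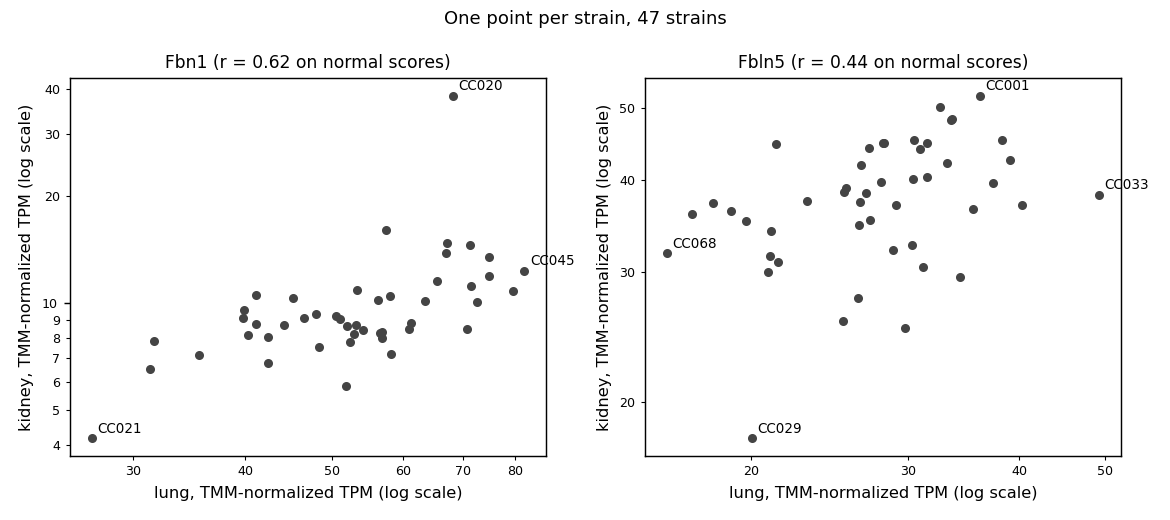
Fbn1 and Fbln5 in lung (x axis) and kidney (y axis) of the same mouse, TMM-normalized TPM on log scales, 47 strains, with the strains at the extremes named. Strains high for Fbn1 in lung tend to be high in kidney (r = 0.62), and the trend is looser for Fbln5 (r = 0.44).

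The other 5 tested members were not called between lung and kidney, where r was 0.227 for Eln (permutation p = 0.126), 0.128 for Fbln1, 0.081 for Mfap4, -0.022 for Efemp1 and -0.019 for Ltbp1. No tested member was called between liver and lung or between liver and kidney, where 10.6% and 18.1% of all tested genes were. The closest with r above 0 was Efemp1 between liver and kidney, with r = 0.315 (permutation p = 0.031, q = 0.137; rho = 0.382, permutation p = 0.00849). Ltbp1 between liver and lung had r = -0.340 (permutation p = 0.0188, q = 0.140; rho = -0.299, permutation p = 0.0407), on a median of 3 reads in liver. Eln had its highest value in strain CC036 and its lowest in strain CC033 in both lung and liver, yet its r between these organs was 0.225 (permutation p = 0.128), and the liver library of CC033 had 0 Eln reads among the fewest counts outside ribosomal genes. In all, 21 such correlations were computed, and low counts limit them in liver, where Ltbp1, Mfap4 and Fbln1 had medians of 3, 5 and 8 reads.

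Measures of the libraries were set beside these values. The share of counts in Rn45s and Lars2 in the 2 organs had r = 0.135 (permutation p = 0.365; rho = 0.140, permutation p = 0.347; 0.121 without 2 strains), and the summed fibroblast markers r = 0.230 (permutation p = 0.12; rho = 0.258, permutation p = 0.0811; 0.188 without 2 strains). With libraries scaled by total counts instead of TMM, so that the ribosomal share entered every value, r fell to 0.327 for Fbn1 and 0.074 for Fbln5 and neither was called. With no batch in the labels, within-batch values could not be computed.

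The third question was which members varied together from strain to strain within an organ. Eln and Fbn1, the core and its scaffold, had r = 0.527 in lung (permutation p = 1.4e-04, q = 0.0116 over all gene pairs; rho = 0.574, permutation p = 2e-05; 0.700 without 2 strains). In kidney the same pair had r = 0.461 (permutation p = 0.00113, q = 0.0792; rho = 0.461, permutation p = 0.00131; 0.403 without 2 strains), and in liver 0.454 (permutation p = 0.00127, q = 0.141; rho = 0.451, permutation p = 0.0016; 0.396 without 2 strains), which was not called. The lung pair was the only member pair called in lung, of 21 tested, where 3.23% of all pairs of tested genes were called with r above 0. In liver 0 of 21 were called, beside 0.451% of all pairs.

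In kidney 3 of 21 pairs were called, beside 1.06% of all pairs, and 2 of these rest on Mfap4, which had a median of 5 reads there. They were Eln with Fbn1 (above), Eln with Mfap4 (r = 0.471, permutation p = 8.4e-04, q = 0.0689; rho = 0.468, permutation p = 0.00116; 0.474 without 2 strains) and Fbln1 with Mfap4 (r = 0.602, permutation p = 2e-05, q = 0.0053; rho = 0.570, permutation p = 7e-05; 0.506 without 2 strains). The kidney of strain CC020 had the highest Fbn1, Fbln1 and Mfap4 of all kidneys, and also the highest sums of fibroblast and smooth muscle markers, 518 and 128 CPM. Over all kidneys, Fbln1 and Mfap4 were each correlated with the fibroblast sum (r = 0.520 and 0.604), and its part in their pair was not tested. Without that strain and 3 others whose libraries stood apart (CC031, CC033 and CC041, all chosen after the values were seen), 1 kidney pair was called, Fbln1 with Mfap4 at r = 0.539. The share of all kidney pairs called also fell, from 1.06% to 0.674%. Over all 21 pairs r was above 0 for 16 in lung, 19 in kidney and 19 in liver, with medians of 0.152, 0.204 and 0.216. The share of all gene pairs with r above 0 was not counted. Whether members varied together more than other genes cannot be told from these values.

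**Figure D5:**
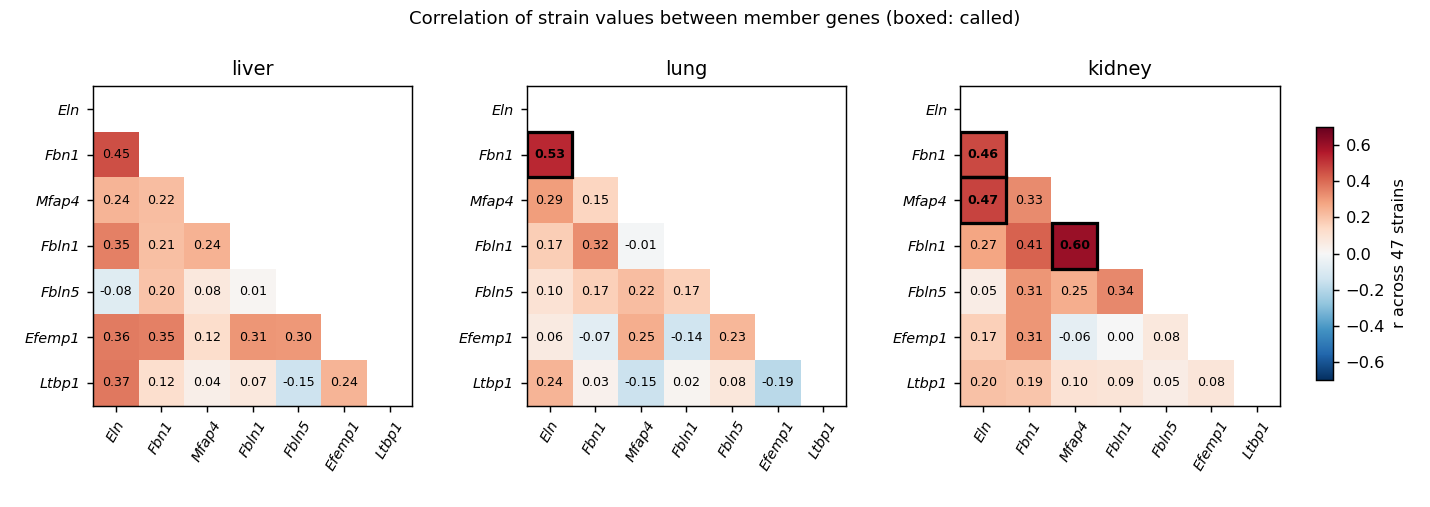
Pearson correlation of normal scores across 47 strains for each pair of the 7 tested members in liver, lung and kidney, with called pairs boxed. Eln with Fbn1 is above 0.45 in all 3 organs, and Fbln1 with Mfap4 in kidney is the highest value, 0.60.

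The size of the variation between strains differed among members. In lung, Mfap4 spanned 10.4-fold from strain CC038 to strain CC055 and its SD on the log2 scale, 0.764, was above that of 83.6% of tested genes, while Eln spanned 5.10-fold (SD 0.630, above 76.5%). Efemp1 in lung was among the steadier genes, spanning 2.78-fold with an SD of 0.270, above 29.5% of genes. In kidney Fbln5 was the steadiest member, spanning 2.91-fold with an SD of 0.295, above 31.2%. For a gene at 5 reads, counting alone gives an SD of about 0.645 on the log2 scale, beside an SD of 1.51 for Mfap4 in kidney and 1.18 in liver.

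Members also moved with marker lists across strains. In lung, Eln rose with the summed fibroblast markers (r = 0.604, permutation p = 1e-05, q = 0.00308 over all tested genes; rho = 0.559, permutation p = 8e-05; 0.513 without 2 strains), and so did Fbln1 (r = 0.611, permutation p = 1e-05, q = 0.00273; rho = 0.628, permutation p = 1e-05; 0.583 without 2 strains) and Fbn1 (r = 0.475, permutation p = 8.3e-04, q = 0.0365; rho = 0.392, permutation p = 0.00709; 0.392 without 2 strains). Fbln5, Efemp1 and Mfap4 in lung had r of 0.079, -0.056 and 0.143 with the same list. The median r of all tested genes with the fibroblast list was 0.017 in lung and -0.0061 in kidney. In kidney Mfap4, Fbln5, Fbn1 and Fbln1 were called with it. Much of that kidney sum came from Col14a1, with a median of 62.3 CPM beside 120 CPM for all 8 markers. Mfap4 had r = 0.604 (permutation p = 4e-05, q = 0.00767; rho = 0.598, permutation p = 4e-05; 0.557 without 2 strains) and Fbln5 r = 0.568 (permutation p = 5e-05, q = 0.0164; rho = 0.594, permutation p = 1e-05; 0.568 without 2 strains). Fbn1 had r = 0.537 (permutation p = 1.3e-04, q = 0.0307; rho = 0.504, permutation p = 3.9e-04; 0.465 without 2 strains) and Fbln1 r = 0.520 (permutation p = 1.9e-04, q = 0.0423; rho = 0.536, permutation p = 9e-05; 0.457 without 2 strains). Fbn1 and Fbln1 were highest in the liver of CC041, where smooth muscle markers reached 283 CPM, and Efemp1 and Mfap4 in the liver of CC031, where skeletal muscle markers reached 1277 CPM. In liver, Eln had r = 0.602 with the smooth muscle markers (permutation p = 1e-05, q = 0.00347; rho = 0.546, permutation p = 1.1e-04; 0.532 without 2 strains). The other called values in liver were Efemp1 with smooth muscle markers (r = 0.468, q = 0.092) and Eln and Mfap4 with cardiac muscle markers (r = 0.475 and 0.569, q = 0.0917 and 0.013). The cardiac values are near the floor: the sum had a median of 0.790 CPM in liver, and Mfap4 a median of 5 reads. Without 2 strains r was 0.383 for Eln and 0.522 for Mfap4. In lung the other called values were Fbln1 with smooth, cardiac and skeletal muscle markers (r = 0.504, 0.515 and 0.440, q = 0.0503, 0.0182 and 0.0659) and Fbln5 with endothelial markers (r = 0.382, q = 0.0782). In kidney they were Mfap4 with smooth muscle markers (r = 0.538, q = 0.0716) and Eln and Fbln1 with mesothelial markers (r = 0.506 and 0.509, q = 0.0503 and 0.0497). A total of 189 such values were computed, for 7 marker lists, the ribosomal share and the counts outside the ribosomal genes, and the cell content behind them was not tested. The share of all tested genes called with each list was not counted, so whether members were called more often than other genes cannot be told. No member was called against the ribosomal share in any organ, where the largest r was 0.338, for Efemp1 in lung (permutation p = 0.0197, q = 0.174; rho = 0.270, permutation p = 0.0662; 0.185 without 2 strains).

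The genes most like 1 member per organ across strains were named by their r over 47 libraries, as a description. Eln was chosen by name for lung, and Fbln5 and Efemp1 as the members with the highest median in kidney and liver. For Eln in lung they were Col3a1 (0.668), Loxl1 (0.651), Col1a1 (0.634), Cmklr1 (0.630) and Efhd1 (0.626), so fibrillar collagens and the elastin crosslinker Loxl1 stood nearest, and Col1a1 is also in the fibroblast list. For Fbln5 in kidney they were Col14a1 (0.700), which is in the fibroblast list, Adamts5 (0.690), an aggrecan-cutting protease, Nid1 (0.584), a basement membrane protein, Svep1 (0.499) and Bmper (0.495). For Efemp1 in liver they were Pkhd1l1 (0.621), Ogn (0.614), Dcn (0.584), Pam (0.566) and Cpe (0.562), and Dcn is in the fibroblast list.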

How the data were processed

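Liver, lung and kidney RNA of 47 male mice was sequenced as single-end reads, which the authors aligned with STAR 2.5.3a to genomes built for each strain from Build37 (mm9) and quantified with RSEM against RefSeq transcripts, keeping uniquely aligned reads. Per gene and library, the deposited values of the authors are expected count, TPM and FPKM, beside a transcript length. The FPKM and length columns deposited by the authors were not used. Expected counts were rounded (25 values were not whole). The labels and file headers give no batch.

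Genes above 1 CPM in 30% or more of libraries (12127) were compared by limma-voom (limma 3.58.1, edgeR 4.0.16 for TMM, R 4.3.3) with mouse as a block, Benjamini-Hochberg adjustment over all tested genes, a call at q of at most 0.1 and a log2 difference of at least 1. Libraries of the same mouse deviated together (median r of 0.161 to 0.200, beside -0.0061 to -0.0049 for other mice), and the pairing comes from the labels and the study's design. Strain values were rank inverse normal scores of log2 CPM (prior count 0.5), with 100000 two-sided permutations (scipy 1.17.1), and q came from the t distribution over all tested genes or 73526001 gene pairs. Motifs were searched on both strands of RefSeq promoters. The 10 members, the marker and wider lists and the tests were chosen with earlier results of these data known. All members are named. Of the wider lists at most 3 genes each with the largest called difference are named, and of similar genes the 5 with the highest r. No 2 libraries were identical (0 pairs). Each strain is 1 mouse, so p-values measure the spread between mice. A count of 3 or fewer was treated as unresolved, which covers counting error only. Counts over genes that pass the filter without lung libraries were added after the data were seen. Both fits were tested on simulated data. The alternatives changed scaling, filter, test (edgeR, DESeq2 1.42.0), scale, block, thresholds and strains. Genotypes and chromatin data were not used here.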

Additional observations from a re-analysis of the deposited data

How the results depend on the processing

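The 7 members higher in lung than in liver and the 6 higher in lung than in kidney stood at these counts except with no low-count filter (9 and 9) and with only the compared organs (8 and 7), where members that had failed the filter were tested too, and over the members that passed the filter without lung libraries (6 and 5). For the 7 tested members, lung stayed above liver in every alternative, and above kidney for all but Fbln5. Members higher in kidney than in liver numbered 3, rising to 6 with scaling by total counts, 5 on log2(TPM + 1) and 6 with no minimum fold change, which also gave 1 member higher in liver (Mfap4, whose sign turned with total counts and on log2(TPM + 1)) and 1 higher in kidney than in lung (Fbln5, 0.040 towards lung on log2(TPM + 1)). The median of all genes moved with total counts to -0.95 (liver minus kidney), -1.44 (liver minus lung) and 0.46 (lung minus kidney). On log2(TPM + 1) it was -0.72, -1.21 and 0.47 in the same order. Without the replicate block, which pairs the organs of a mouse, 7 members were higher in lung than in liver, 6 higher in lung than in kidney and 4 higher in kidney than in liver, the added one being Ltbp1 (-1.05), and no other call changed.

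Between lung and kidney 0 members were called with total counts instead of 2. Between liver and kidney 1 was called instead of 0 (Efemp1), both without the 11 strains that had a library under 4000000 counts (r = 0.484) and by Spearman's rank correlation (0.382). Of 21 pairs of members, total counts gave 18 called in liver (0 with TMM), 21 in lung (1) and 19 in kidney (3), beside 79.4%, 94.9% and 87.9% of all gene pairs. Under that scaling 8 pairs turned from below 0 to above 0 and were called: Eln with Fbln5 (0.315) and Fbln5 with Ltbp1 (0.274) in liver, Fbn1 with Efemp1 (0.708), Fbln1 with Efemp1 (0.642), Fbln1 with Mfap4 (0.452), Efemp1 with Ltbp1 (0.638) and Ltbp1 with Mfap4 (0.423) in lung, and Fbln1 with Efemp1 (0.462) in kidney. The kidney count was 1 without the shallow libraries and 1 without CC020, CC031, CC033 and CC041. Over all gene pairs in kidney the share called was 0.456% and 0.674% in these settings, beside 1.06% with all strains. Eln with Fbn1 in kidney was also not called on TMM-normalized TPM (0.448) or without CC015 and CC037 (0.452). Both sets of named strains and the filter without lung libraries were chosen after seeing the data. The cause was not tested for any of these changes. Depth limits Mfap4 and Ltbp1 outside lung, Fbln1 in liver, and Lox, Fbln2 and Efemp2 throughout.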

Other observations

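The balance of elastic fibre transcripts within a mouse differed between organs, in ratios that were chosen after the values were seen and were not tested. On TMM-normalized TPM, Fbln5 over Eln had a median of 0.634 in lung (0.195 to 2.60 over 47 mice), 14.0 in kidney (5.54 to 36.1) and 2.07 in liver, where 1 mouse had no Eln reads. Fbln5 was thus above Eln in 47 of 47 kidneys and in 6 of 47 lungs. Mfap4 over Fbn1 had a median of 4.10 in lung, with Mfap4 the higher in 47 of 47 mice, and of 0.136 in kidney, with Mfap4 the higher in 0 of 47. Each ratio is taken within a library, so the scaling of the library cancels.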
